A study of Homo sapiens with 18 samples.

Results

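The genes described here are MYC, its dimerisation partner MAX, MAX-binding repressors and proteins that make ribosomes in the nucleolus, 40 genes in all. They were chosen by name, with earlier results of these data known. They were followed in 2 human bladder cancer cell lines, J82 and RT112, on whole-transcript arrays of total RNA. A gene was measured where a probe set carried its symbol alone, and of several such probe sets the brightest was kept. By that rule 35 of the 40 genes were measured, among 22465 genes. MXD4, NOP56, DKC1 and PPAN lie on probe sets that also carry other symbols, and GNL3 had no probe set of its own here, so these 5 were not analysed.

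The groups were RT112 treated with palbociclib, RT112 given PBS, J82 treated with palbociclib and J82 given PBS, with 3 arrays in each. Palbociclib, a drug that blocks the cyclin-dependent kinases CDK4 and CDK6, was given at the IC50, the concentration that lowers a response to the midpoint of its range. Its concentration and the hours of exposure are not given in the sources used here. Each array came from a culture dish of 1 line, with no normal urothelial cells beside it, and nothing says that the dishes were independent passages, so p-values measure the spread between dishes. The remaining line, 5637, was treated the same way, but its values on gene probe sets did not follow the probe set names (Pearson's r with J82 of 0.03 across 67528 transcript clusters, against 0.94 between RT112 and J82), and it was not used by gene.

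MYC is a transcription factor that binds DNA as a dimer with MAX, most strongly at the E-box sequence CACGTG. MXD1 and its relatives pair with MAX at the same sequence and repress transcription, and MXD1 is known to increase as cells leave the cell cycle and differentiate. Ribosome biogenesis, from RNA polymerase I transcription of rRNA through its cleavage and modification to the assembly of both subunits, is among the best known programmes that MYC drives, and it sets how fast a cell can grow.

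All levels below are the deposited log2 values. The highest is 19.93, whereas a 16-bit scanner cannot give a log2 value over 16. The scale is therefore stretched, and a log2 difference is no fold change of signal. Levels of different genes are compared only to sort brighter from dimmer genes and to place the markers. No relative amount of RNA is read from them. The median value of an array was 4.80 to 4.94 on 11 of the 12 arrays and 5.21 on the first RT112 palbociclib array, which also had the smallest array weight (0.11). The RT112 control means of 13 urothelial and epithelial markers ran from 4.42 (UPK3A) to 15.54 (KRT5). CDH1 averaged 13.57 under palbociclib and 13.51 in controls in RT112. The keratins KRT8 and KRT18 averaged 11.38 and 12.53 in RT112 controls, below their 13.7 and 14.38 in J82 controls. In J82 CDH1 averaged 5.33 under palbociclib and 5.68 in controls, close to the array medians, while the keratin KRT18 averaged 11.82 under palbociclib and 14.38 in controls. Of 13 urothelial and epithelial markers, KRT19 (1.73) and KRT5 (1.20) rose and UPK1B (-1.27) and KRT18 (-1.25) fell under palbociclib in RT112, and KRT18 (-2.56) and KRT8 (-0.95) fell in J82. The uroplakin UPK3A lay between 4.22 and 4.42 in every group mean. Of 7 mesenchymal or stromal markers, CDH2 averaged 12.21 under palbociclib and 12.91 in controls in J82. The J82 control means of VIM, ACTA2 and COL1A1 were 6.03, 5.67 and 5.41. FN1 averaged 9.91 in J82 controls and 10.47 in RT112 controls. Under palbociclib PDGFRB (-0.9965), CDH2 (-0.71) and COL1A2 (-0.50) fell in J82, and FN1 (-0.89) and CDH2 (-0.57) fell in RT112. None of the 7 rose in either line. The endothelial markers PECAM1, VWF and CDH5 lay between 3.18 and 4.75 and the leukocyte markers PTPRC and CD3E between 4.21 and 4.95, while CD68, a lysosomal protein, averaged 10.69 under palbociclib and 10.82 in controls in J82. The part of these marker changes in the results was not tested.

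In RT112 palbociclib raised MXD1 and MYC and lowered 6 genes of ribosome biogenesis, namely NCL, NOLC1, LYAR, FBL, UTP4 and RRS1. The 6 were 17.1% of the 35 measured genes, where 3.53% of all genes fell, and the 2 were 5.71%, where 4.95% of all genes rose (8 of 35 or 22.9% either way, against 8.48% of all genes). In J82 palbociclib raised MAX and MXD1 (5.71%, where 5.4% of all genes rose) and lowered none, where 2.78% of all genes fell and 8.18% were called either way. All genes include many dim ones, while all 35 lay among the genes brighter than the median gene. Fitted over those brighter genes alone, limma called 8 of the 35 in RT112 (22.9%), against 19.6% of the brighter genes. In J82 that fit called 2 of the 35 (5.71%), against 19.1%. At an unadjusted p under 0.05 limma had 3 of the 35 lower in J82 (POLR1A, UBTF and BOP1), none of which passed after adjustment, and 3 higher. Of the 22465 genes, 1418 were lower and 2937 higher in J82 at that limit. Leaving out RT112 control replicate 3 left 5 of the 8 RT112 calls. As RNA came from whole dishes and the arrays were scaled to each other, less RNA of a gene per cell and fewer cells making it cannot be told apart.

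**Figure D1:**
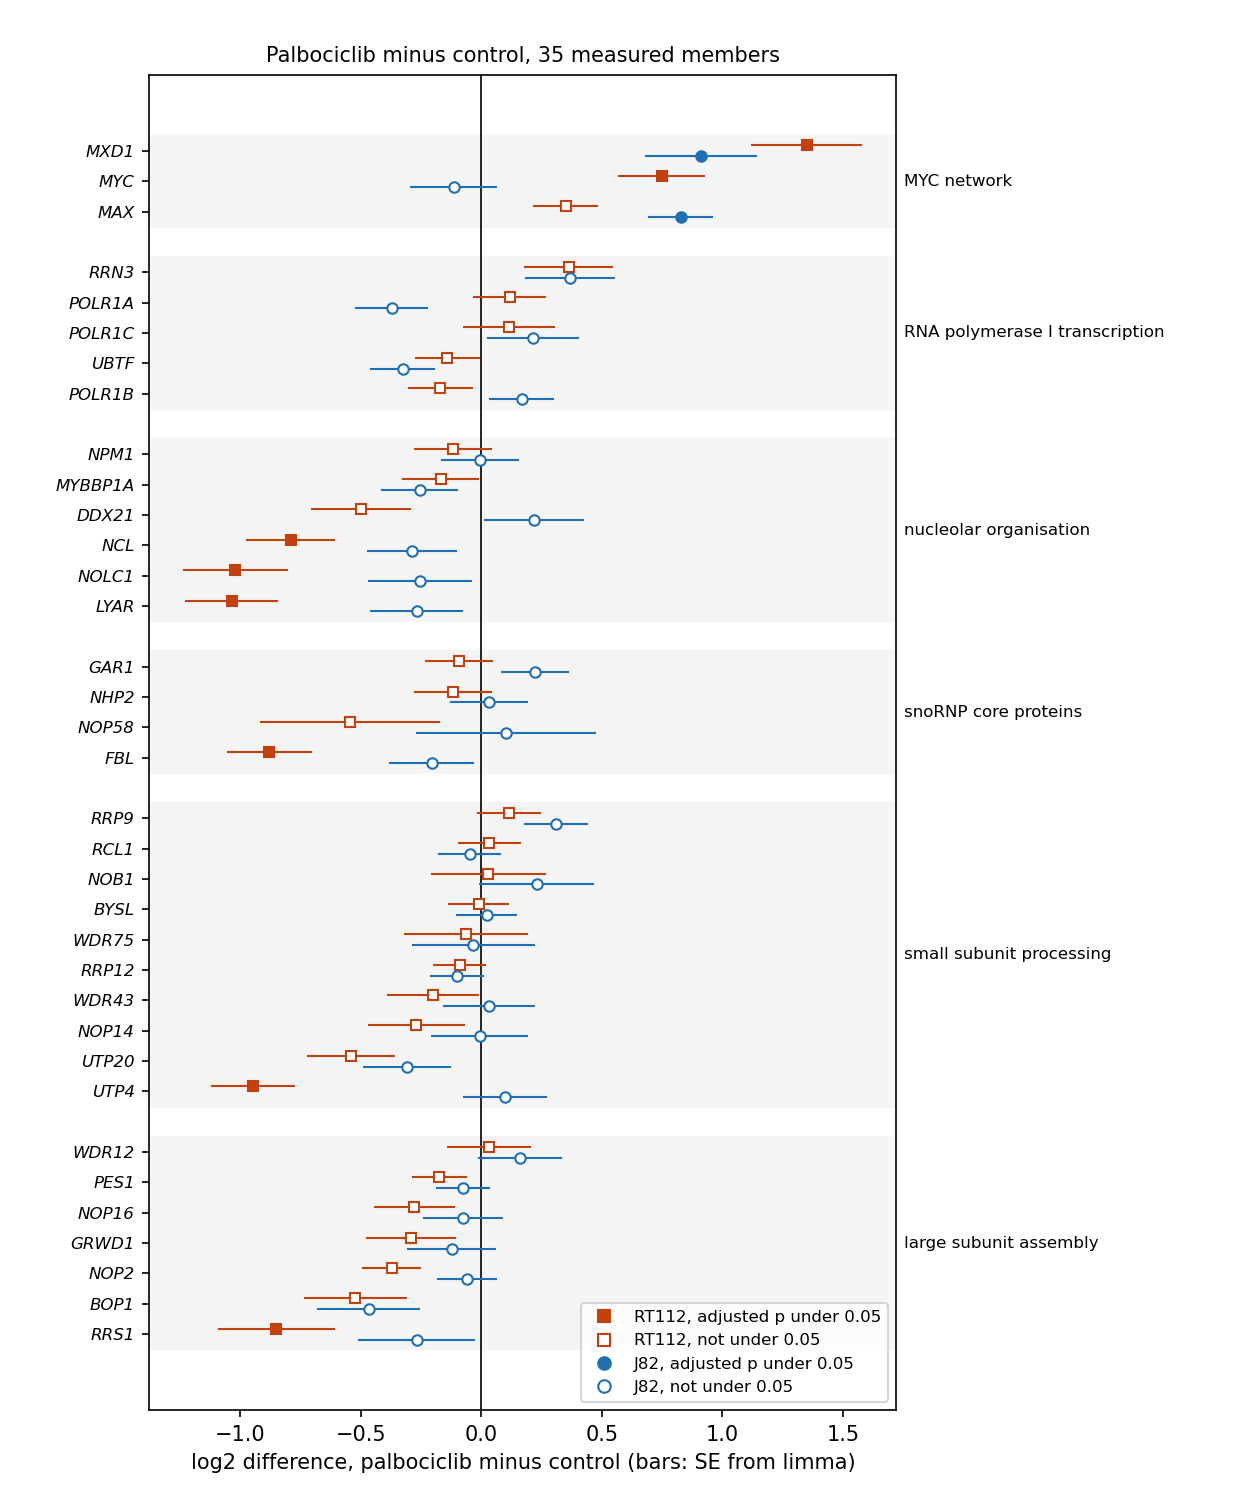
Log2 difference of palbociclib minus control (horizontal axis) for the 35 measured genes, grouped by role and down the page from highest to lowest in RT112. Circles are J82 and squares RT112, filled where limma's adjusted p was under 0.05, and bars are the SE from limma. The 6 filled squares left of zero are NCL, NOLC1, LYAR, FBL, UTP4 and RRS1.

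Within the MYC network, MXD1 was the gene that rose in both lines. MXD1, the MAX-binding repressor, stood at 8.55, 9.62 and 9.66 on the RT112 palbociclib arrays, against 7.99, 7.75 and 8.05 on the RT112 control arrays. The groups did not overlap, and the first palbociclib array was the lowest of its group. The log2 difference was 1.35 ± 0.23 (SE, n = 3 each, limma, adjusted p = 0.002), and 1.71 without that array. In J82 MXD1 stood at 7.97, 8.05 and 8.11 under palbociclib, against 7.15, 7.20 and 7.06 in controls. These groups were tight and separate, with a difference of 0.91 ± 0.23 (adjusted p = 0.026). Over the 12 fits that each left out 1 array the J82 call ended without any 1 of the J82 controls or without palbociclib replicate 2 or 3 (adjusted p from 0.0609 to 0.0884), with a difference of 0.88 to 0.95 throughout. It also ended with the arrays shifted to one median (0.139) and with all transcript clusters adjusted together (0.0615). Of all genes, 1.26% rose in both lines, and MXD1 was the 1 of the 35 among them (2.86%), while none of the 35 fell in both, as 0.494% of all genes did.

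MYC itself rose in RT112 and gave no call in J82. In RT112 it stood at 9.97, 10.04 and 10.29 under palbociclib, against 9.40, 9.50 and 9.14 in controls. Every palbociclib array lay above every control array, and the difference was 0.75 ± 0.18 (SE, n = 3 each, adjusted p = 0.0186). The J82 values of MYC were 8.35, 7.79 and 8.25 under palbociclib, against 8.46, 8.06 and 8.20 in controls. These groups overlapped, and the difference was -0.11 ± 0.18 (adjusted p = 0.888). The RT112 response exceeded the J82 response by 0.86 ± 0.25, which did not pass the test of the difference (limma, adjusted p = 0.0796). It passed in 2 alternatives, with bright genes alone (adjusted p = 0.0464) and with array weights (0.0371). The RT112 call ended without control replicate 1 (adjusted p = 0.0543), control replicate 3 (0.0951) or palbociclib replicate 3 (0.0898), with a difference of 0.65 to 0.83 over the fits that left out an array. It also ended with the arrays shifted to one median (0.099) and with all transcript clusters adjusted together (0.0546).

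MAX, the partner that both MYC and MXD1 need to bind DNA, rose in J82. It stood at 8.08, 8.07 and 8.38 under palbociclib there, against 7.35, 7.36 and 7.35 in controls, with no overlap. The difference was 0.83 ± 0.13 (SE, n = 3 each, adjusted p = 0.00174), and the call held whichever array was left out. In RT112 MAX stood at 7.17, 7.39 and 7.31 under palbociclib, against 7.15, 6.87 and 6.80 in controls. The groups were separate by a narrow gap, and the difference of 0.35 ± 0.13 did not pass (adjusted p = 0.151).

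**Figure D2:**
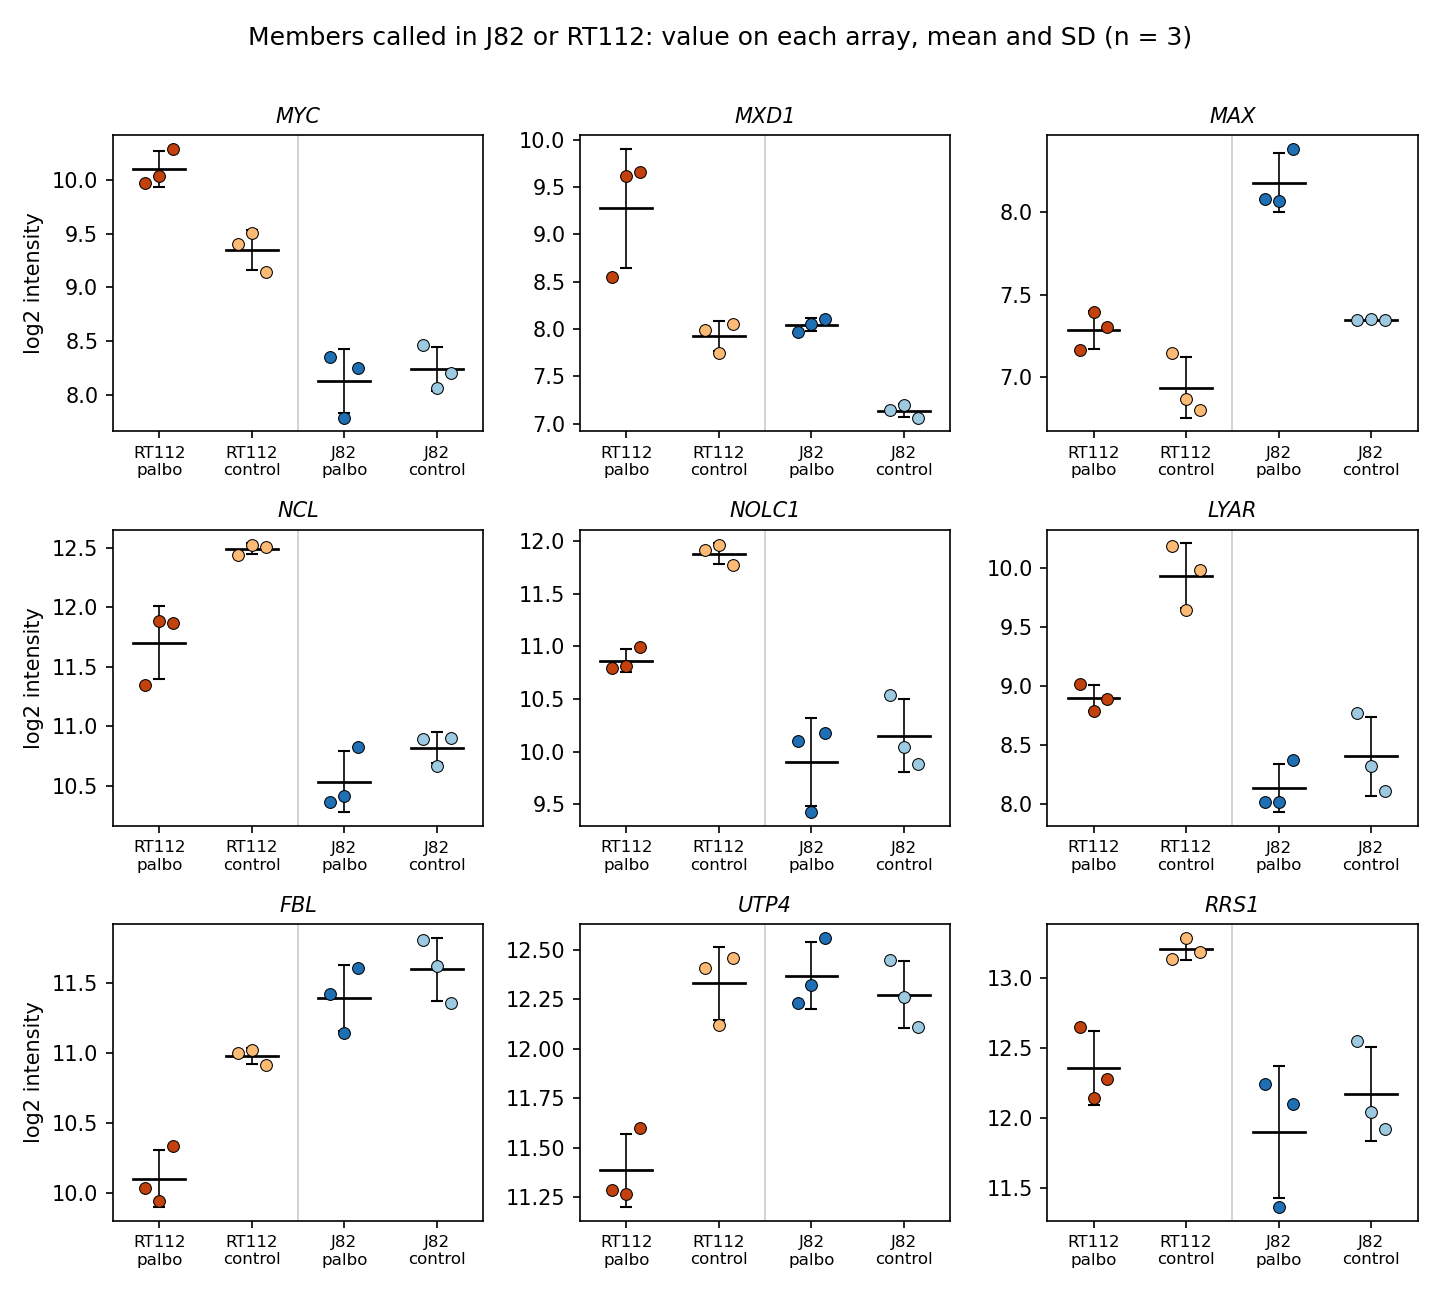
Deposited log2 value (vertical axis) on each array for 9 of the genes, with palbociclib left of control in each line, a bar at the group mean and whiskers for the SD (n = 3). MXD1 is higher under palbociclib in both lines without overlap, MYC is so in RT112 and overlaps in J82, and the 6 genes called lower in RT112 are separate from their controls there while their J82 arrays overlap.

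Of 6 measured proteins that organise the nucleolus, 3 fell in RT112 and none gave a call in J82 by limma (0 also at an unadjusted p under 0.05). LYAR, a zinc finger protein that promotes rRNA transcription and processing, stood at 9.02, 8.79 and 8.89 under palbociclib in RT112, against 10.18, 9.64 and 9.98 in controls. NOLC1, a chaperone of snoRNPs that shuttles between nucleolus and cytoplasm, stood at 10.79, 10.81 and 10.99 under palbociclib, against 11.91, 11.96 and 11.77 in controls. In both genes the highest palbociclib array lay well below the lowest control. Their differences were -1.03 ± 0.19 (LYAR, adjusted p = 0.00351) and -1.02 ± 0.22 (NOLC1, adjusted p = 0.00881).

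NCL, nucleolin, a major RNA-binding protein of the nucleolus, stood at 11.35, 11.89 and 11.87 under palbociclib in RT112, against 12.44, 12.53 and 12.51 in controls. The control arrays were nearly equal, and the first palbociclib array lay furthest below them. The difference was -0.79 ± 0.19 (SE, n = 3 each, adjusted p = 0.0162), and -0.62 without that array (adjusted p = 0.0339). The call ended without RT112 control replicate 2 (0.0698) or 3 (0.0613) and with the arrays shifted to one median (0.0941). In J82 NCL stood at 10.36, 10.41 and 10.83 under palbociclib, against 10.89, 10.67 and 10.90 in controls, and these overlapped (-0.29 ± 0.19, adjusted p = 0.49). DDX21, an RNA helicase that binds rRNA, and MYBBP1A, a MYB-binding protein that also acts in rRNA processing, also lay below their controls on every palbociclib array of RT112, with differences of -0.50 ± 0.21 and -0.17 ± 0.16 that did not pass (adjusted p = 0.198 and 0.76). DDX21 values there were 9.54, 10.25 and 10.21 under palbociclib, against 10.60, 10.32 and 10.56 in controls, so that the first palbociclib array stood apart and the others came close to the lowest control. The chaperone NPM1, nucleophosmin, had group means between 14.72 and 14.87 in all 4 groups.

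Among the core proteins of snoRNPs, the particles that modify rRNA, FBL fell in RT112 and NOP58, GAR1 and NHP2 gave no call. FBL, the methyltransferase of box C/D particles, stood at 10.03, 9.94 and 10.33 under palbociclib in RT112, against 11.00, 11.02 and 10.91 in controls. The groups were separate, with a difference of -0.88 ± 0.18 (SE, n = 3 each, adjusted p = 0.00636). The J82 difference of FBL was -0.21 ± 0.18 (adjusted p = 0.673). NOP58, a scaffold of the same particles, stood at 9.69, 11.32 and 11.07 under palbociclib in RT112, against 11.12, 11.06 and 11.52 in controls. The first palbociclib array lay far below the rest, the other palbociclib arrays lay at 11.07 and above, and the difference of -0.54 ± 0.37 did not pass (adjusted p = 0.563). GAR1 and NHP2, of the box H/ACA particles that make pseudouridine, had RT112 differences of -0.09 and -0.12. In J82 GAR1 was higher on every palbociclib array, by 0.22 ± 0.14, and did not pass (adjusted p = 0.477).

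Of 10 measured factors of small subunit processing, UTP4 fell in RT112 and the others gave no call in either line. UTP4, a protein of the small subunit processome that also acts in rRNA transcription, stood at 11.29, 11.27 and 11.60 under palbociclib in RT112, against 12.41, 12.12 and 12.46 in controls. In J82 it stood at 12.23, 12.32 and 12.56 under palbociclib, against 12.45, 12.26 and 12.11 in controls. RT112 groups were separate and J82 groups overlapped, with differences of -0.95 ± 0.17 in RT112 (SE, n = 3 each, adjusted p = 0.00335) and 0.10 ± 0.17 in J82 (adjusted p = 0.908). UTP20, another processome protein, was lower on every palbociclib array of RT112 but did not pass (-0.54 ± 0.18, adjusted p = 0.0936). Its values there were 7.40, 7.86 and 7.91 under palbociclib, against 8.20, 8.15 and 8.44 in controls. RRP9, a protein of the U3 snoRNP that guides early cleavage of rRNA, was higher on every palbociclib array of J82 and did not pass (0.31 ± 0.13, adjusted p = 0.206). The remaining 7, among them the endonuclease NOB1 and the export factor RRP12, had differences from -0.27 to 0.23 over both lines.

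Of 7 measured factors of large subunit assembly, RRS1 fell in RT112. RRS1, which helps to bring a small ribosomal RNA into the large subunit, stood at 12.65, 12.14 and 12.28 under palbociclib in RT112, against 13.14, 13.29 and 13.19 in controls. The groups were separate, with a difference of -0.85 ± 0.24 (SE, n = 3 each, adjusted p = 0.0451), close to the threshold. That call ended without any 1 of the RT112 controls, without RT112 palbociclib replicate 2 or 3 and without J82 control replicate 2 or 3 (adjusted p from 0.0512 to 0.171). It also ended with the arrays shifted to one median (0.0609), after a second quantile normalization (0.0523) and with all transcript clusters adjusted together (0.107). NOP2, an rRNA methyltransferase, and NOP16 and BOP1, factors of early large subunit particles, were lower on every palbociclib array of RT112 and none passed. NOP2 stood at 8.66, 8.79 and 8.69 under palbociclib, against 9.03, 9.15 and 9.08 in controls, a difference of -0.37 ± 0.12 (adjusted p = 0.0894). BOP1 stood at 8.36, 8.76 and 9.04 under palbociclib, against 9.21, 9.13 and 9.39 in controls, with a difference of -0.52 ± 0.21 (adjusted p = 0.187). The narrow NOP2 groups were well apart, while the BOP1 palbociclib arrays were spread out and nearly reached the controls. NOP16 differed by -0.28 ± 0.17. BOP1 has a further probe set, whose RT112 difference was -0.35, and its J82 difference was -0.47 ± 0.21 on the probe set used. PES1 and WDR12, which form a complex with BOP1, and GRWD1, a chaperone of a ribosomal protein, had RT112 differences of -0.17, 0.03 and -0.29.

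The measured genes of RNA polymerase I transcription gave no call in either line (limma, 0 of 5). At an unadjusted p under 0.05, 2 were lower in J82 (POLR1A and UBTF) and none in RT112. POLR1A, the largest subunit of the polymerase, stood at 8.15, 7.82 and 8.11 under palbociclib in J82, against 8.54, 8.24 and 8.40 in controls. The groups were separate, but the difference of -0.37 ± 0.15 did not pass (adjusted p = 0.182). RRN3, the factor that recruits the polymerase to the rRNA promoter, differed by 0.37 ± 0.19 in J82 and 0.36 ± 0.19 in RT112. UBTF, which holds the rRNA genes open, differed by -0.33 and -0.14, and POLR1B and POLR1C lay between -0.17 and 0.22 in both lines.

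Over the 35 genes, the 3 palbociclib arrays of RT112 lay wholly below the 3 controls for 13 genes (37.1%, against 8.26% of all genes) and wholly above them for 4 (11.4%, against 14.5%). In J82 1 gene lay wholly below (2.86%, against 7.82%) and 4 wholly above (11.4%, against 16.1%). These shares of all genes include the dimmer genes. The median difference of the 35 genes was -0.17 in RT112, where the median of all genes was 0.04, and -0.03 in J82, where that of all genes was also 0.04. The J82 median changed sign when 1 array was left out: it was 0.04 when control replicate 1 or palbociclib replicate 1 was dropped, -0.02 when palbociclib replicate 2 was, -0.07 for control replicate 3 and -0.12 for palbociclib replicate 3. Without the first RT112 palbociclib array the same 8 genes were called in RT112, where 8.09% of all genes then rose and 5.11% fell, and 15 of the 35 lay wholly below controls (42.9%, against 32.3% of all genes with 2 arrays left).

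**Figure D3:**
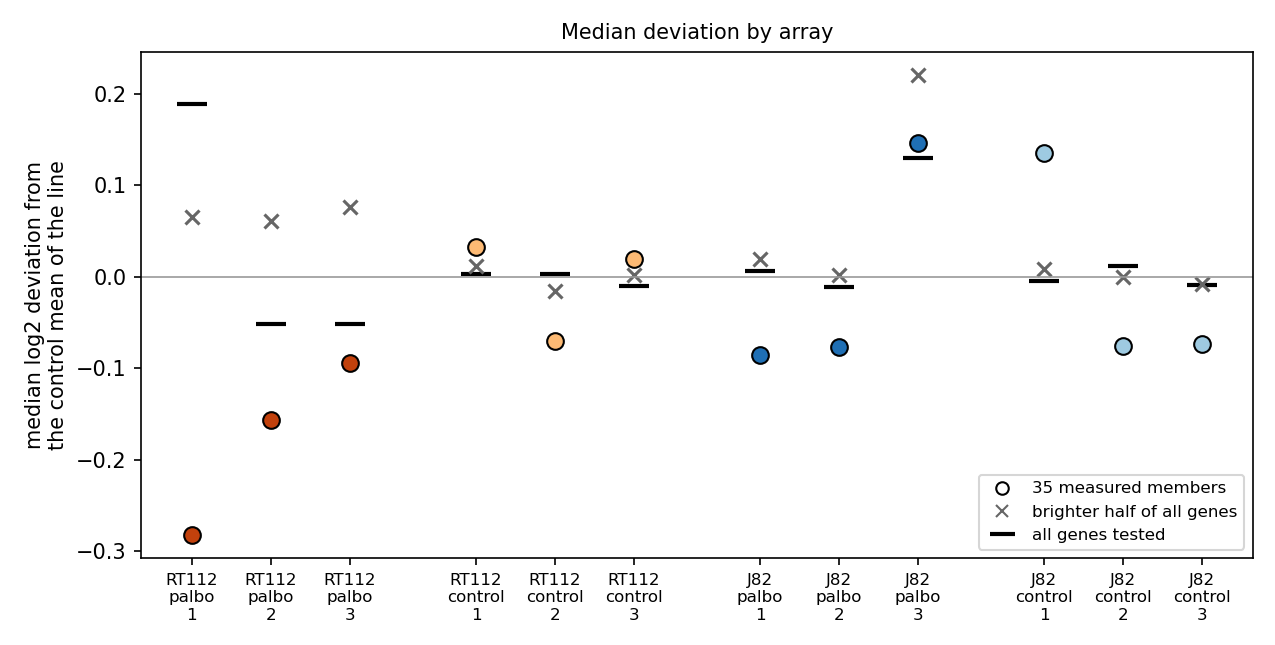
Median deviation from the control mean of the same line (vertical axis, log2) on each of the 12 arrays, with palbociclib left of control, for the 35 genes, for all 22465 genes and for the 11232 brighter genes. The 3 RT112 palbociclib arrays have member medians of -0.28, -0.16 and -0.09, and the first of them has the highest all-gene median, 0.19.

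The first RT112 palbociclib array also had the lowest member median, -0.28, against -0.16 and -0.09 on the others, while its median over all genes was 0.19, against -0.05 and -0.05. Over the 11232 brighter genes the medians of the 3 arrays were 0.07, 0.06 and 0.08. The part of that array's shift in the member median was not tested, and the member median without it was -0.11. In J82 the member median of the third palbociclib array was 0.15, and that of the first control array 0.14.

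The promoters of 4 of the 6 genes that fell in RT112 are shown with that of MXD1, which rose. CACGTG is marked because it is the letter sequence that MYC and MXD1 dimers share. Each is the RefSeq stretch on GRCh38.p14 from 250 bases before to 50 bases after a transcription start, 300 bases read 5′ to 3′ on the gene's strand, with CACGTG in capitals.
UTP4 (chr16:69132399-69132698, plus strand): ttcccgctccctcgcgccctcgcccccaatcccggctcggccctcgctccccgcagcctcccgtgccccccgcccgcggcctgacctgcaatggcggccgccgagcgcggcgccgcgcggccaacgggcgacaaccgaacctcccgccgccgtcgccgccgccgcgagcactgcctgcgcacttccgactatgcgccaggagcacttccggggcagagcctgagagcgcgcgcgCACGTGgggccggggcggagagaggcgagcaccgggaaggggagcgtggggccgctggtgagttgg
FBL (chr19:39846330-39846629, minus strand): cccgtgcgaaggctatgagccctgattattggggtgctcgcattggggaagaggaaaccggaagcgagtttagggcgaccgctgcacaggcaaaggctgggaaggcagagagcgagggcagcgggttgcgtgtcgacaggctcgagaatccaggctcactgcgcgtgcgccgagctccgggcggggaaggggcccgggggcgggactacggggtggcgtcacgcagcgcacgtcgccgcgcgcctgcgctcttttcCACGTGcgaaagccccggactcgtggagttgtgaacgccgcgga
LYAR (chr4:4289972-4290271, minus strand): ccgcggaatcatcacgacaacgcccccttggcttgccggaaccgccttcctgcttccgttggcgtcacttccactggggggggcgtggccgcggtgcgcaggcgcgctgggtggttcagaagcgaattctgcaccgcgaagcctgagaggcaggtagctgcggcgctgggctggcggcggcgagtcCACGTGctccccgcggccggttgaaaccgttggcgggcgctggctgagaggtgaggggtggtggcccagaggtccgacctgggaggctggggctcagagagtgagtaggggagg
NCL (chr2:231464435-231464734, minus strand): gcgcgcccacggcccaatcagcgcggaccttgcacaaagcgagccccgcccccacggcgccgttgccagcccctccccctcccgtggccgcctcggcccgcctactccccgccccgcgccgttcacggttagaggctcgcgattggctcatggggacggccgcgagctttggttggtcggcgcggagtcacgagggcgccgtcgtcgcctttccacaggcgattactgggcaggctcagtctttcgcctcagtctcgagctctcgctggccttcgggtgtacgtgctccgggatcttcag
MXD1 (chr2:69914859-69915158, plus strand): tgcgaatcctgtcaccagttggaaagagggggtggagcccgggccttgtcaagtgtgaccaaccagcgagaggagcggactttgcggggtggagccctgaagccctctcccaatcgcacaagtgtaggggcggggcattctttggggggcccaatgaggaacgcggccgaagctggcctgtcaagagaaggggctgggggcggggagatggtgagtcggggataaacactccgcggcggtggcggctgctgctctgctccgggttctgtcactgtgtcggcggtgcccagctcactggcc
UTP4, FBL and LYAR hold 1 copy each, and NCL and MXD1 hold none. LYAR has another start listed, whose window lacks it. NOLC1, MYC and RRS1 are named only. CACGTG reads the same on both strands, and a match or its lack describes these letters in this window and no binding.

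The same search over all 40 genes matched 34 of them, with 44 starts, and found CACGTG at 16 starts (36.4%), 1 in each of 16 genes. Of all 35116 RefSeq starts given, 7.26% held it, and among the starts of the genes tested 8.1%. In 14 of the 16 the first base of CACGTG lay within 40 bases of the start, and in the others it lay 64 bases before the start (LYAR) and 238 bases before it (MXD4). Genes with the sequence that gave no call in either line included WDR43, RRP9, NOP14, BYSL, RCL1, DDX21, NOP2, UTP20, MYBBP1A, GAR1 and PES1.

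Did the 2 lines respond differently? UTP4 was the 1 gene of the 35 whose responses differed past the threshold (2.86%, against 4.57% of all genes in either direction and 2.74% in this direction, with none higher, where 1.83% of all genes were). Its RT112 response was lower than its J82 response by a difference of -1.05 ± 0.25 (SE, limma, adjusted p = 0.0261). That call ended with the arrays shifted to one median (adjusted p = 0.092), when all transcript clusters were adjusted together, and without RT112 control replicate 1 or 3, RT112 palbociclib replicate 2, J82 control replicate 2 or 3 or J82 palbociclib replicate 3 (adjusted p from 0.0524 to 0.0824). For 28 of the 35 the RT112 response lay below the J82 response, with a median of -0.19. Of the 22465 genes tested, 11587 did so, with a median of -0.01. No test was run on this count. MXD1 responses differed by 0.44 ± 0.33 (adjusted p = 0.696), and by 0.80 without the first RT112 palbociclib array (adjusted p = 0.0151).

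Untreated, the lines already differed in 22 of the 35 genes (62.9%, against 27.5% of all genes). Fitted over the brighter genes alone, which held all 35, the count was also 22, against 50.4% of those genes. RT112 controls were higher than J82 controls for 16 (12.8% of all genes) and lower for 6 (14.7%). NOLC1 averaged 11.88 ± 0.10 in RT112 controls and 10.15 ± 0.34 in J82 controls (SD, n = 3 each), a difference of 1.73. NCL averaged 12.49 ± 0.05 in RT112 controls and 10.82 ± 0.13 in J82 controls, a difference of 1.67. WDR43, a processome protein, differed by 1.68, LYAR by 1.53, NOP16 by 1.36, NOB1 by 1.13 and RRS1 by 1.04. Of the 6 genes that palbociclib lowered in RT112, 4 were thus higher in RT112 controls, while FBL was lower there by a difference of -0.61 and UTP4 gave no call.

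MYC averaged 9.35 ± 0.19 in RT112 controls and 8.24 ± 0.20 in J82 controls (SD, n = 3 each), and the difference of 1.11 passed (limma, adjusted p = 0.00025). MXD1 was also higher in RT112 controls, by 0.79, and MAX was lower, with a difference of -0.41. The other genes lower in RT112 controls were MYBBP1A (-0.87), UTP20 (-0.85), NOP14, a processome protein (-0.69), and UBTF (-0.43). The remaining genes higher in RT112 controls were POLR1C (1.06), DDX21 (0.98), BOP1 (0.72), the small subunit factor BYSL (0.65), POLR1A (0.52), PES1 (0.52) and NOP2 (0.47). Of these 22 calls, 14 held in all 21 alternatives. MAX and UBTF kept the call in 13 of the 21, POLR1A in 16, BOP1, FBL, MXD1 and NOP14 in 17 and NOP2 in 18, with an adjusted p of at most 0.15. Each of these 8 lost it without at least 1 of the J82 control arrays and without at least 1 of the RT112 control arrays, and MAX also lost it with the replicate block (adjusted p = 0.0649). This contrast shares its control arrays with both responses, so its values stand beside them as a description.

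**Figure D4:**
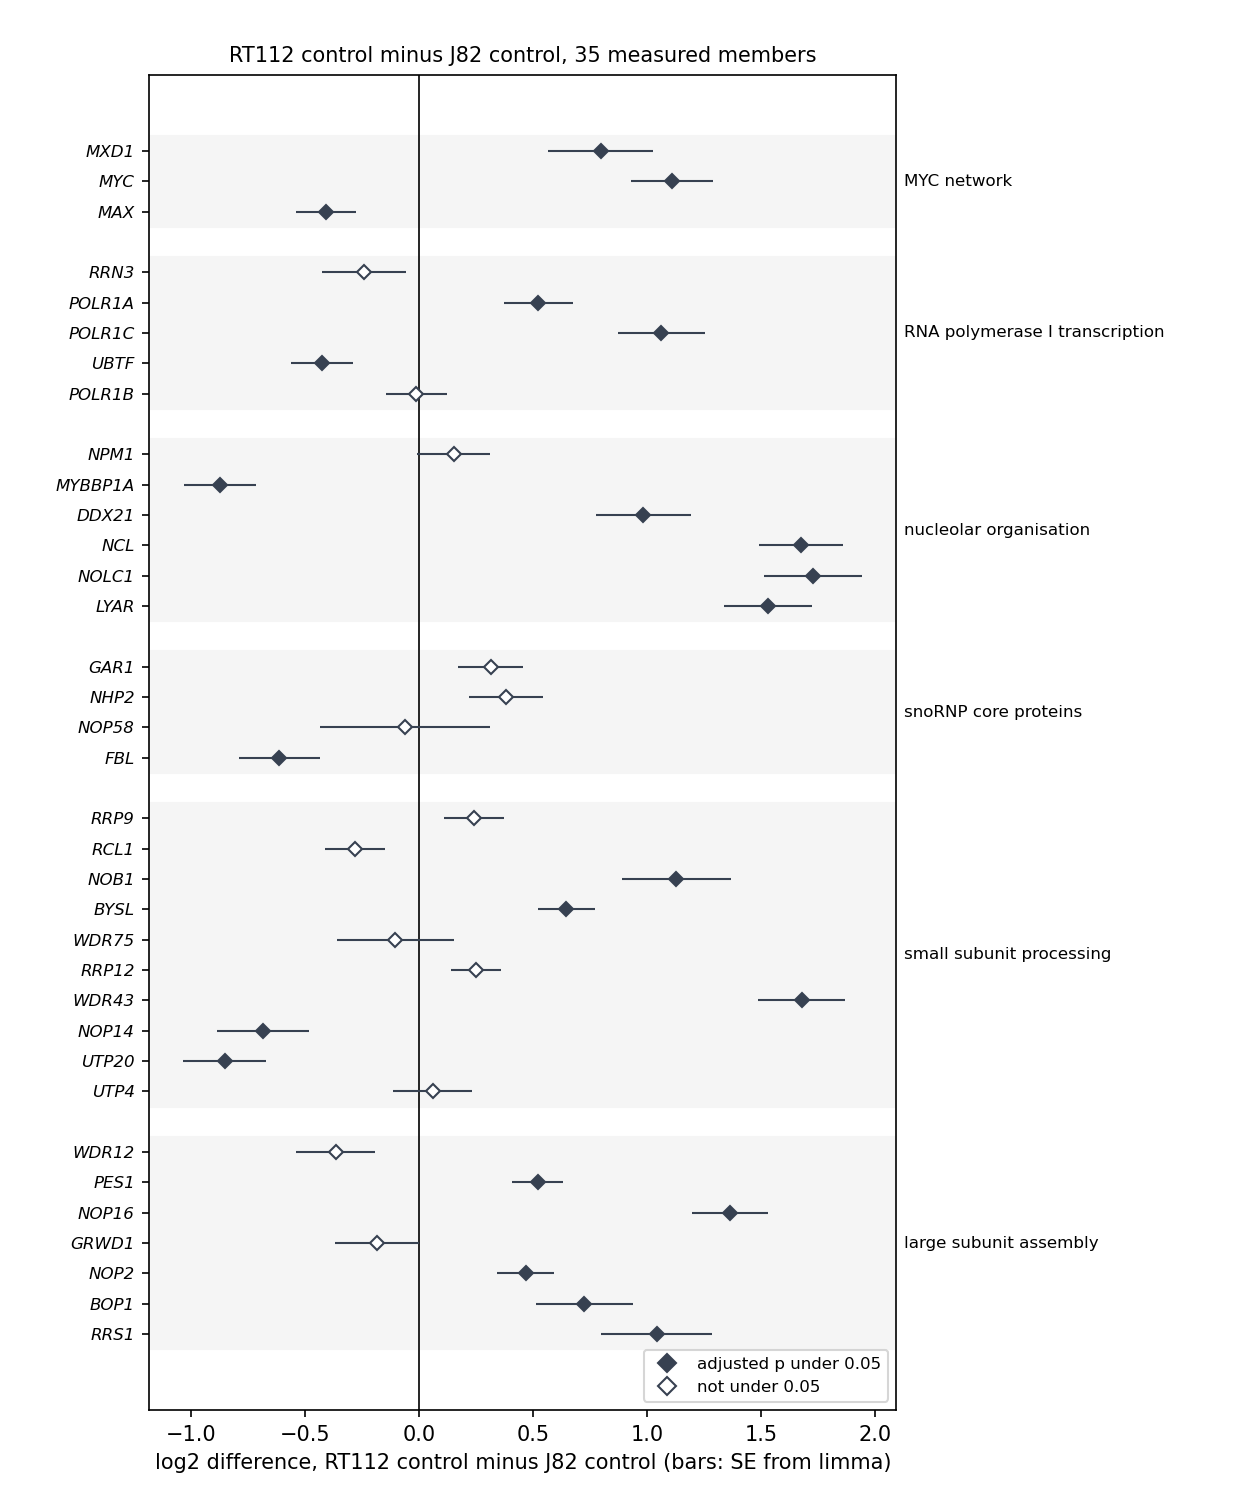
RT112 control minus J82 control (horizontal axis, log2 difference) for the 35 genes, grouped by role in the same order as in the plot of palbociclib responses. Filled points passed limma's adjusted p of 0.05 and bars are the SE. The 16 filled points right of zero include NOLC1 at 1.73, WDR43 at 1.68 and NCL at 1.67, and the 6 left of zero include MYBBP1A at -0.87.

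Genes of the same pathways outside the 40 were read from 7 lists. Of all genes, 4.95% rose and 3.53% fell in RT112, and 5.4% rose and 2.78% fell in J82. These shares, and those of all genes below, include the dimmer genes. Of 49 further small subunit factors, 1 rose (2.04%) and 4 fell (8.16%) in RT112, while 3 rose (6.12%, near the share of all genes) and none fell in J82 (2 at an unadjusted p under 0.05, limma). In RT112 NOL11 (-0.95), NOL6 (-0.67) and UTP11 (-0.63), all processome proteins, fell and the kinase RIOK3 rose (0.78). In J82 TSR2 (1.00), a chaperone of a ribosomal protein, and the processome proteins UTP18 (0.64) and UTP23 (0.46) rose. Of 43 further large subunit factors, 1 rose (2.33%) and 5 fell (11.6%) in RT112, and 5 rose (11.6%) and 1 fell (2.33%) in J82. RRP1B (-0.94), BRIX1 (-0.92) and PAK1IP1 (-0.91) fell in RT112. ZNF622, a factor of late cytoplasmic maturation, rose in RT112 by 1.15 and in J82 by 1.31. In J82 RSL24D1 (1.51) and the GTPase EFL1 (1.12), which act late in large subunit maturation, rose and NOL12 fell (-0.49).

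These counts changed without the first RT112 palbociclib array. Then 1 rather than 4 of the small subunit list (2.04%) and 2 rather than 5 of the large subunit list (4.65%) fell in RT112, both below the 5.11% of all genes that fell without it. Of the large subunit list 3 rather than 1 rose (6.98%, against 8.09% of all genes). NOL6, UTP11, BRIX1, PAK1IP1 and RPAP3 were among the genes that lost their call without that array. The snoRNP list of 10 had 1 gene lower in RT112, RPAP3 of the assembly chaperone (-0.76), and none without that array. In J82 PIH1D1 of the same chaperone rose (0.96).

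Of 29 genes of the RNA polymerase I and III machinery, 1 rose (3.45%) and 2 fell (6.9%) in RT112. Without the first palbociclib array 3 rose and 3 fell (10.3% each, where 8.09% of all genes rose and 5.11% fell). TCOF1, treacle, which supports rRNA transcription, averaged 7.83 in RT112 under palbociclib and 9.32 in RT112 controls, a difference of -1.50 ± 0.15 (SE, n = 3 each, limma, adjusted p = 1.56e-05). POLR3K fell (-0.56) and GTF3A, the factor that starts transcription of a small rRNA, rose (0.96). In J82 3 rose (10.3%) and 1 fell (3.45%). The RNA polymerase III subunit POLR3G fell by 1.37 on the log2 scale, and MAF1, the repressor of that polymerase, rose by 0.68, with POLR1F (0.52) and POLR1H (0.50).

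Of 15 further genes of the MYC network, none gave a call in RT112 (limma, 1 higher at an unadjusted p under 0.05). In J82 MXI1, another MAX-binding repressor, averaged 7.55 under palbociclib and 6.62 in controls, a difference of 0.93 ± 0.13 (adjusted p = 0.000582).

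Of 36 well known MYC targets outside ribosome biogenesis, 1 rose and 8 fell in RT112 (22.2%, against 3.53% of all genes), the same counts as without the first palbociclib array, and 5 rose (13.9%) and 3 fell (8.33%) in J82. The median was -0.29 in RT112 and 0.02 in J82. The nuclear import receptor KPNA2 fell in RT112 (-2.28) and in J82 (-1.29), and E2F1 (-1.53) and CDK4 (-1.41), of the cell cycle, fell in RT112. FASN, fatty acid synthase, rose in RT112 (0.84) and fell in J82 (-1.29). In J82 the amino acid transporter subunits SLC7A5 (1.77) and SLC3A2 (1.62) and the serine enzyme SHMT2 (1.70) rose, and NCBP1 fell (-0.70). In the test of the difference between responses 5 of the 36 were lower in RT112 (13.9%, against 2.74% of all genes) and 1 was higher (2.78%, against 1.83%). Of the brighter genes fitted alone, 11.1% differed in response and 19.6% were called in RT112, each counted either way.

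Of 52 ribosomal protein genes, 1 rose and none fell in RT112 (RPL28, 0.61, with none lower at an unadjusted p under 0.05, limma), and 1 fell and none rose in J82 (RPL29, -0.82, with 5 higher at an unadjusted p under 0.05). Their medians were 0.03 in RT112 and 0.05 in J82, close to those of all genes. Of all 22465 genes, 2937 were higher in J82 at an unadjusted p under 0.05 by limma. Without the first RT112 palbociclib array 3 ribosomal protein genes rose in RT112 (5.77%, against 8.09% of all genes). In RT112 controls 16 of the 52 were higher (30.8%, against 12.8% of all genes) and 1 lower (1.92%, against 14.7%) than in J82 controls. These shares of all genes include the dimmer genes, and of the brighter genes fitted alone 50.4% differed between controls either way.

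The calls of single genes in these lists differed in how they held over 22 alternatives. Of 17 named in RT112, RRP1B, TCOF1, KPNA2, E2F1 and CDK4 held in all, and the other 12 were lost in some. GTF3A and NOL11 kept the call in 19, NOL6, PAK1IP1 and RIOK3 in 15, BRIX1, RPAP3 and ZNF622 in 14, POLR3K and UTP11 in 13 and FASN and RPL28 in 12. Of 20 named in J82, TSR2, EFL1, PIH1D1, POLR3G, MXI1, KPNA2, FASN, SLC7A5, SLC3A2 and SHMT2 held in all. MAF1 kept it in 21, RSL24D1 in 20, ZNF622 in 18, UTP23 and POLR1H in 17, NCBP1 and RPL29 in 14, NOL12 in 9, POLR1F in 7 and UTP18 in 5. Except for MAF1, each of the genes with lost calls lost it without at least 1 single array. The replicate block ended the calls of UTP18, UTP23, POLR1F and NOL12 in J82 and of POLR3K, RPL28 and UTP11 in RT112.

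**Figure D5:**
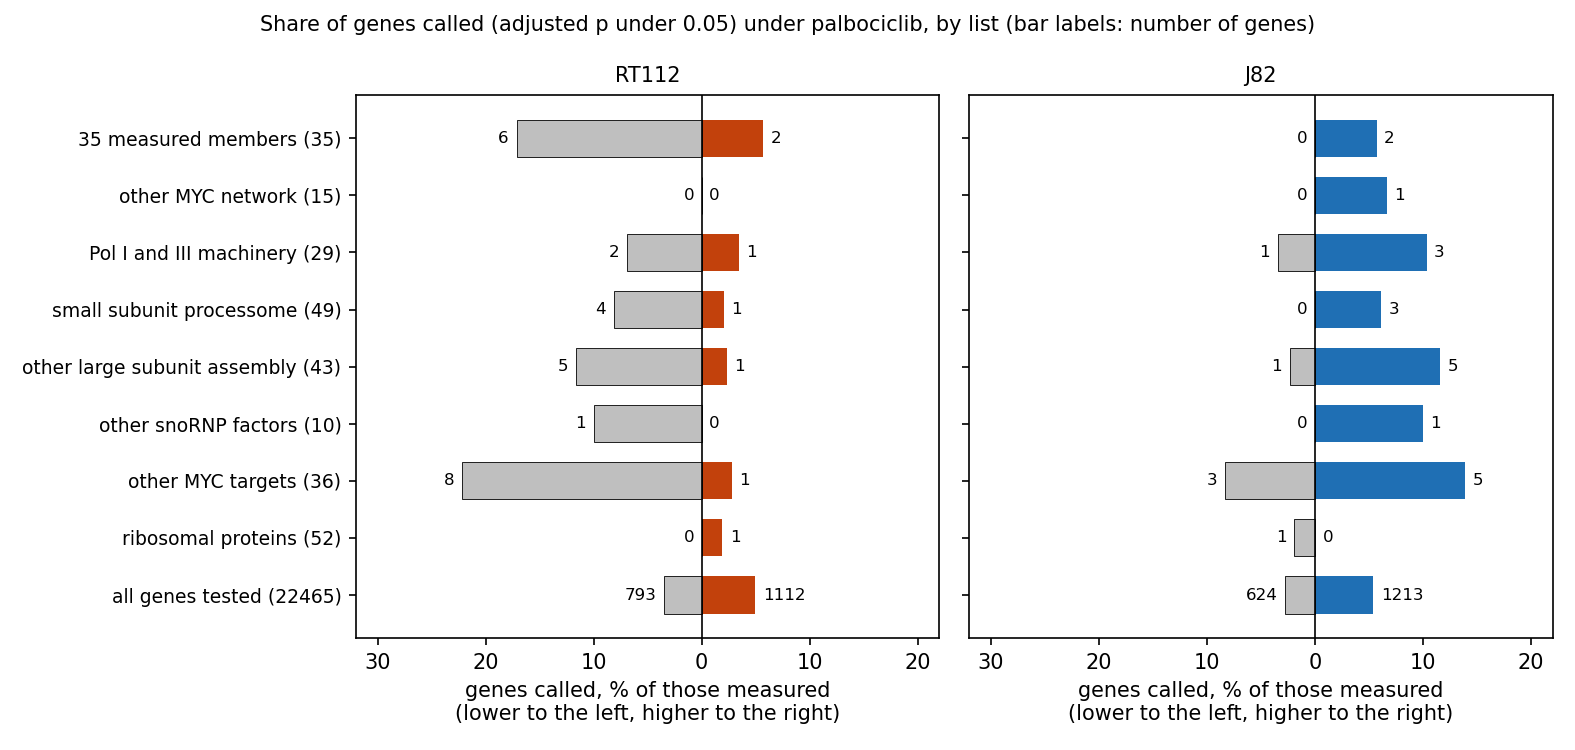
Percent of the genes of each list called higher or lower under palbociclib (limma, adjusted p under 0.05) in each line, for the 35 members, the 7 other lists and all genes. All genes include the dimmer ones. In RT112 the shares called lower are 22.2% of the other MYC targets, 17.1% of the members and 11.6% of the large subunit list. They are 10.0% of the snoRNP list (1 gene), 8.16% of the small subunit list and 6.9% of the polymerase list. The MYC network list and the ribosomal proteins have none, and the share of all genes is 3.53%. Without the first RT112 palbociclib array 4.65% of the large subunit list, 2.04% of the small subunit list and none of the snoRNP list fell. Of all genes 5.11% fell without it. Of the brighter genes fitted alone, on all 12 arrays, 19.6% were called in RT112 either way.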

How the data were processed

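RNA of RT112 and J82 dishes was biotin-labelled for Affymetrix whole-transcript arrays, per the labels. What the authors deposited are log2 probe set levels, without detection p-values. The submitters' processing notes name RMA and Affymetrix Expression Console without a version, and no build of the probe sets was found in the labels or the file headers. Line and treatment in the labels gave 4 groups of 3 arrays.

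Transcript clusters with exactly 1 symbol in the platform annotation were used, with the probe set of highest mean per symbol, giving 22465 genes. limma 3.58.1 (R 4.3.3) estimated the 4 group means with an intensity-trended empirical Bayes variance on 8 residual degrees of freedom. Adjusted p-values are Benjamini-Hochberg values taken across the 22465 genes, and 0.05 was the limit. No list was given a test of its own. On simulated data for 22465 genes, changes of 1 on the log2 scale were recovered in 77.5% of cases for RT112 and 83.5% for J82, and changes of 0.5 in 7.5% and 0%.

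Alternatives were a replicate block, shifting arrays to one median, quantile scaling, bright genes alone, all probe sets of a gene, all transcript clusters, 2 other variance models, array weights, each line alone, a minimum size of difference and leaving out each array. Leaving out the first RT112 palbociclib array for list counts was chosen after seeing the data. The members and lists were chosen with earlier results of these data known. Every member past the threshold is named, and the 3 highest and 3 lowest called genes of each other list in each line. The number of arrays limits the precision. The 5637 line was not used by gene.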

Additional observations from a re-analysis of the deposited data

Results flagged for a closer look

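UTP4, of the small subunit processome, differed in its response to palbociclib between the lines, by the test of the difference itself. The RT112 response minus the J82 response was -1.05 ± 0.25 on the log2 scale (SE, limma, adjusted p = 0.0261), with the RT112 arrays of palbociclib all below their controls and the J82 arrays overlapping. The call held in 13 of 21 alternatives that did not set a minimum size.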

How the results depend on the processing

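Every call named for the 35 genes kept its sign in every alternative run. Of the 8 calls in RT112, FBL, LYAR, MXD1, NOLC1 and UTP4 passed in every alternative without a minimum size, and of the 2 in J82 MAX did. Of the 22 between controls 14 did. With arrays shifted to one median 5 of the 35 were called in RT112, 1 in J82 and 0 in the difference of responses. With all transcript clusters adjusted together 1 was called in J82 and 0 in the difference, and with bright genes alone 2 in the difference. Array weights gave 13 in RT112 and 3 in the difference. A minimum log2 difference of 1 left 3 in RT112, 0 in J82 and 9 between controls. Leaving out each array in turn gave 5 to 8 calls in RT112, 1 to 2 in J82, 0 to 2 in the difference and 16 to 23 between controls, with medians of the 35 from -0.196 to -0.114 in RT112 and from -0.116 to 0.0447 in J82. Over all genes the RT112 count was 1905, and it was 1040 with one median, 1108 with all transcript clusters, 5780 with array weights, 595 with the minimum size and 1131 to 2965 with an RT112 array left out. The J82 count was 1837, and 1160 with all transcript clusters, 1045 with J82 alone, 535 with the minimum size and 1147 without control replicate 3. The count for the difference was 1027, and 678 with one median, 602 with all transcript clusters and 2384 with array weights, and that between controls was 6183, and 2593 with the minimum size. The replicate numbers did not pair the dishes in RT112, where same-numbered deviations correlated at 0.09, -0.19 and 0.17. The correlations in J82 were 0.17, 0.19 and 0.08. With the replicate block the counts were 8 in RT112, 2 in J82, 1 in the difference and 21 between controls. In J82 each dish correlated best with its own number, which is a hint from the data and not the design. With 3 arrays a group, differences near 0.5 were seldom detectable.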

Other observations

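CACGTG was also counted in the RefSeq windows of the other lists. It was present at 36.4% of starts of the further small subunit factors, 32.7% of the other MYC targets, 25% of the snoRNP factors, 22.7% of the further large subunit factors, 18.8% of the RNA polymerase I and III machinery, 9.09% of the MYC network genes and 6.0% of the ribosomal proteins, against 7.26% of all starts.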
